A study of Mus musculus with 6 samples.

Results

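The 7 genes described here belong to the presentation of peptides by major histocompatibility complex (MHC) class II. They were taken by symbol from the deposited table of 55487 genes: H2-Aa, H2-Ab1 and H2-Eb1, H2-DMa and H2-DMb1, Cd74, and Ciita. All 7 were found once each, and all 7 passed the filter on low values, which kept the 18766 genes with a mean rlog value of 3 or more. The rule used symbols only and no measured value.

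The study compared mouse bone marrow cells positive for the receptor Kit that had been transduced with a lentivirus overexpressing wild type MLLT3 (WT, n = 3 libraries) or MLLT3 carrying K63E and K67E (DM, n = 3 libraries). MLLT3 is a chromatin protein whose YEATS domain reads acylated histones and, per the title of the series, the noncoding RNA 7SK. In both groups the endogenous Mllt3 gene was targeted for deletion with 4-hydroxytamoxifen at 200 nM, so neither group is an unmanipulated control. Sorted cells of both groups grew for 8 days in methylcellulose with mIL-3, mIL-6 and mIL-11, the growth factors mSCF, mGMCSF, hEPO and hTPO (each of these at 20 ng/mL) and mFlt3L at 10 ng/mL. The labels give no strain, age or sex of the mice and do not say which driver made the tamoxifen-responsive recombinase. They also do not say whether replicates came from separate mice, so p-values measure the spread between these libraries, which may be technical.

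MHC class II molecules are pairs of an alpha and a beta chain that carry peptides from ingested or endosomal proteins to the surface, where CD4 T cells read them. The invariant chain, encoded by Cd74, holds the groove of a new class II molecule until it reaches the endosome, and the H2-DM heterodimer (whose name is unrelated to the DM group) then exchanges the remnant of that chain for a peptide. Ciita is the coactivator that switches these genes on; it does not bind DNA itself but docks on a complex of RFX, CREB and NF-Y factors assembled on the X and Y boxes of class II promoters. Macrophages, dendritic cells and B cells are the usual carriers of class II.

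The promoter sequences are shown first because they carry the element that class II genes have in common. RefSeq promoter windows (GRCm38.p6, 250 bases before to 50 after a start) were matched by symbol for 8 of 12 class II genes, 4 of them among the 7 described here (H2-Aa, H2-Eb1, H2-DMa and H2-DMb1), while H2-Ab1, Cd74, Ciita and H2-Ea were not matched. The Y box was searched as TGATTGG and a core of the X box as AACNNATG, on both strands. These letters were chosen after the windows and the expression values had been seen. The stretches below run 5′ to 3′ on the strand of each gene, with the Y box, the X core and any full cyclic AMP response element (TGACGTCA, the factor CREB's consensus site, a palindrome) in capitals.
H2-Aa, chr17:34287859-34287918, minus strand: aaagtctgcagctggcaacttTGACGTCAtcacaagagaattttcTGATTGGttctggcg
H2-Eb1, chr17:34305761-34305820, plus strand: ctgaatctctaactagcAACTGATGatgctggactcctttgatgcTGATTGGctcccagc
H2-DMb1, chr17:34153083-34153142, plus strand: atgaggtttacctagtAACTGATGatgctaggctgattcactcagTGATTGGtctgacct
H2-DMb2, chr17:34145112-34145171, plus strand: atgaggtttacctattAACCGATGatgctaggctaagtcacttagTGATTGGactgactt
H2-Ob, chr17:34238801-34238860, plus strand: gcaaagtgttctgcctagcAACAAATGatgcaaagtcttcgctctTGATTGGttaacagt
H2-Eb2, chr17:34325528-34325587, plus strand: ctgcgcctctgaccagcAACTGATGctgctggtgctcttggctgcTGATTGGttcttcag
H2-Oa, chr17:34092289-34092348, plus strand: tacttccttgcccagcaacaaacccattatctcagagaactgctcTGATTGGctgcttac

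The Y box was found in the windows of 7 of the 8 class II genes and in 7.82% of all 32851 windows of the same length. Its first base lay between 45 and 102 bases before the start. In 5 of the 8 genes an X core preceded the Y box by 18 to 21 bases, while the X core by itself was found in 8.86% of all windows. The X core with a Y box at most 40 bases behind it was found in 19 windows in all (0.0578%), each of another gene, and 5 of these genes were class II genes. The H2-Aa stretch holds a full TGACGTCA, present in 1.79% of all windows, and no X core in the searched form. Neither of the 2 windows of H2-DMa (34122582 to 34122881 and 34125268 to 34125567) held these letters. Both lay in the 5′ part of a gene annotated from 34119541 to 34139101, and the first spans the annotated start of Brd2 on the opposite strand. Whether either window is the H2-DMa promoter used in these cells was not tested, so the element may lie elsewhere in this gene. A match describes letters and was not tested for binding. Because the letters were chosen after the class II windows had been seen, setting these counts beside the shares of all windows does not measure enrichment.

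Expression was deposited as regularized log (rlog) values, a log2 scale corrected for differences in library size and pulled toward the mean of the gene, most at low levels. A change below is the difference of the mean rlog values, DM minus WT, and was tested with limma over all 18766 genes with Benjamini-Hochberg adjustment and a threshold of 0.05. Of these genes, 2611 (13.9%) were called, 1727 (9.2%) higher and 884 (4.71%) lower. Calls were higher in 66.1% of cases, and in 51.3% after quantile normalization. Depth is unknown because the values hold no counts. Kit, the receptor named for the starting cells, lay between 14.29 and 14.9 in the 6 libraries. The general leukocyte gene Ptprc lay between 13.63 and 14, so transcripts of both were present. The targeted and supplied gene Mllt3 had values from 12.44 to 12.87 in WT and from 11.99 to 12.44 in DM, a change of -0.48 (limma adjusted p 0.0448); the values do not separate vector from endogenous transcripts.

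Class II presentation genes were higher in cells with the substituted MLLT3. Of the 7 genes, 6 rose and none fell (9.2% of all tested genes rose), and the median change of the 7 was 0.74 on the log2 scale against 0.01 over all tested genes. The 3 genes for the peptide-binding chains and Cd74 rose by 0.74 to 0.88, or 1.67-fold to 1.84-fold, the H2-DM pair by 0.48 and 0.6, and Ciita, at 0.24, did not pass the threshold. In every one of the 7 the lowest DM library lay above the highest WT library, which was the case for 21.5% of all tested genes, and 35.8% of all tested genes had groups that did not overlap in either direction. A called rise of at least 0.5 was seen in 5 of the 7 and in 2.57% of all tested genes.

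**Figure D1:**
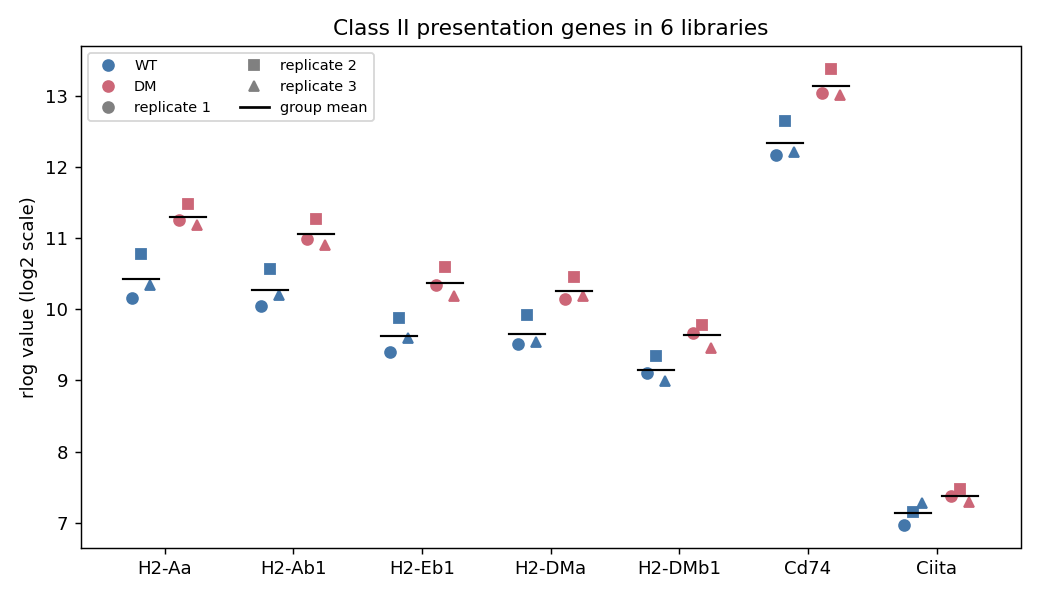
Each point is the rlog value (log2 scale) of 1 library, in blue for WT and red for DM, with a symbol for each replicate number and a line at the group mean. All DM points lie above all WT points for each gene, narrowly for Ciita, where the highest WT value was 7.28 and the lowest DM value 7.29.

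H2-Aa (ENSMUSG00000036594.15; chromosome 17, 34282744 to 34287823, minus strand) encodes the alpha chain of the I-A molecule. These coordinates and the others given for genes are from GENCODE M21 on GRCm38; the submitters' processing notes name mm10. In the order of the replicate numbers, as for each gene below, its rlog values stood at 10.16, 10.77 and 10.34 in WT, against 11.25, 11.48 and 11.18 in DM. All 3 DM libraries were above the highest WT library. The mean went from 10.42 ± 0.312 (SD, n = 3) to 11.3 ± 0.159 (change 0.88, SE 0.142, limma adjusted p 0.00578).

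H2-Ab1 (ENSMUSG00000073421.6; chromosome 17, 34257689 to 34269419, plus strand) encodes the beta chain that pairs with H2-Aa. It stood at 10.04, 10.56 and 10.2 in WT, against 10.99, 11.27 and 10.9 in DM. The groups did not overlap, and replicate 2 was the highest library of each group. The mean went from 10.27 ± 0.263 (SD, n = 3) to 11.06 ± 0.192, a change of 0.79 (SE 0.134, limma adjusted p 0.00684).

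H2-Eb1 (ENSMUSG00000060586.11; chromosome 17, 34305867 to 34316674, plus strand) encodes the beta chain of the I-E molecule. Its values stood at 9.4, 9.88 and 9.6 in WT, against 10.34, 10.59 and 10.19 in DM, again with no overlap. The change was 0.74 (SE 0.13, limma adjusted p 0.0074). H2-Ea, the gene for the alpha chain of I-E and annotated as a polymorphic pseudogene, lay between 1.21 and 1.29 in all 6 libraries and was below the filter, so the beta chain transcript rose where that of its partner stayed near the bottom of the scale in both groups.

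Cd74 (ENSMUSG00000024610.15; chromosome 18, 60803848 to 60812652, plus strand), the invariant chain, stood at 12.17, 12.64 and 12.21 in WT, against 13.04, 13.38 and 13.01 in DM. The lowest DM library was 13.01 and the highest WT library 12.64. The mean went from 12.34 ± 0.26 (SD, n = 3) to 13.14 ± 0.205, a change of 0.81 (SE 0.138, limma adjusted p 0.00691).

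H2-DMa (ENSMUSG00000037649.10; chromosome 17, 34119541 to 34139101, plus strand) and H2-DMb1 (ENSMUSG00000079547.4; chromosome 17, 34153072 to 34160230, plus strand) encode the chains of the peptide exchange factor H2-DM. H2-DMa stood at 9.51, 9.92 and 9.54 in WT, against 10.14, 10.46 and 10.18 in DM (change 0.6, SE 0.122, limma adjusted p 0.0115). H2-DMb1 stood at 9.11, 9.34 and 8.99 in WT, against 9.67, 9.78 and 9.45 in DM (change 0.48, SE 0.109, limma adjusted p 0.0178). Neither gene's groups overlapped, though the gap for H2-DMb1 was narrow, from 9.34 to 9.45. H2-DMb1 lost its call without DM replicate 2 (0.41, limma adjusted p 0.0716) and without WT replicate 1 (0.47, limma adjusted p 0.0634).

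Both H2-DM genes carry a limit of counting. The annotated start of H2-DMa overlaps the more abundant Brd2 (13.14 on average over the 6 libraries) on the opposite strand, and whether reads were counted by strand is not given in the sources used here. Brd2, a bromodomain gene, was not called (change 0.21, limma adjusted p 0.0663). Of the 50-base stretches of the longest coding transcript of H2-DMb1, 27.2% also occur in transcripts of its paralog H2-DMb2, so reads from these parts could be split or lost. None of the 50-base stretches of H2-Aa, H2-Ab1, H2-Eb1, H2-DMa or Cd74 occur in an annotated transcript of another gene.

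Ciita (ENSMUSG00000022504.10; chromosome 16, 10480059 to 10528418, plus strand), the coactivator of the class II genes, stood at 6.97, 7.15 and 7.28 in WT, against 7.37, 7.47 and 7.29 in DM. WT replicate 3 and DM replicate 3 nearly met. The mean went from 7.13 ± 0.155 (SD, n = 3) to 7.38 ± 0.0946, a change of 0.24 with a 95% interval from 0.04 to 0.45 before adjustment (SE 0.0918, limma adjusted p 0.112, from 0.0552 to 0.306 over the 13 alternative fits). The interval includes neither 0 nor the 0.88 of H2-Aa. The difference between H2-Aa and Ciita within a library was 3.29 ± 0.294 (SD, n = 3) in WT and 3.93 ± 0.0711 in DM, without overlap between the groups (exact permutation test over libraries, two-sided, p 0.1, which is the lowest value possible with 3 libraries a group, and 0.1 adjusted over the 3 gene pairs compared in this way). Almost no room for overlap was left by the ranges of both genes already given, so this p adds no support. Shrinkage is stronger for a gene at the level of Ciita than for H2-Aa, and the part of shrinkage in the smaller change was not tested. The 3′ part of Ciita overlaps Dexi on the opposite strand, whose values lay between 8 and 8.24 (change 0.14, limma adjusted p 0.2).

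**Figure D2:**
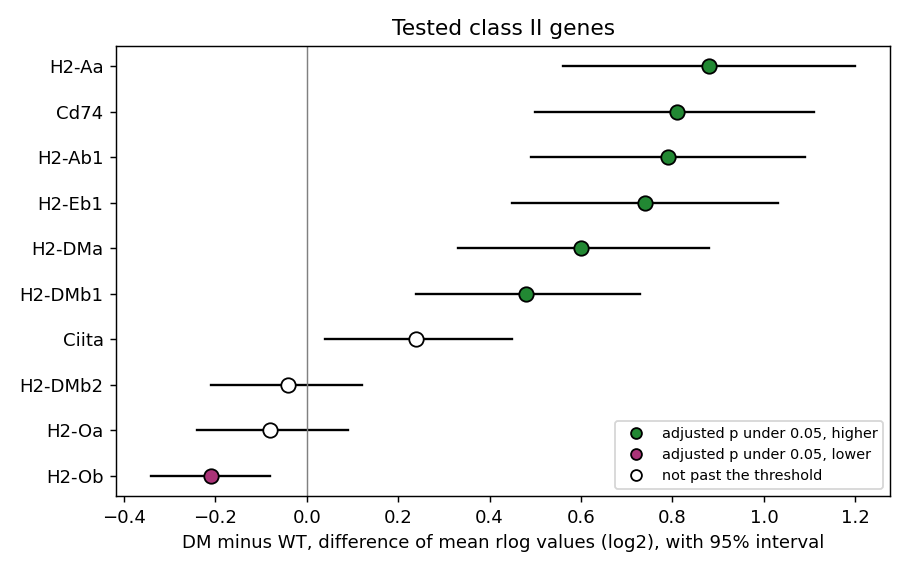
Points are changes (DM minus WT, log2) of the 10 tested class II genes and bars are 95% intervals of the limma fit without adjustment for the number of genes. The 6 called genes lie between 0.48 and 0.88, Ciita at 0.24, and H2-DMb2, H2-Oa and H2-Ob at -0.04, -0.08 and -0.21.

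Levels were compared between genes after taking transcript length into account, as the mean rlog value minus the log2 of the length in kb of the longest coding transcript. In WT the order was Cd74 at 11.84, H2-Aa at 10.25, H2-Ab1 at 9.99, H2-Eb1 at 8.89, H2-DMb1 at 8.66, H2-DMa at 8.65 and Ciita at 4.55. H2-Aa and H2-Ab1, which encode partner chains, differed by less than the SD of H2-Aa, H2-Eb1 and H2-DMb1 by less than the SD of H2-Eb1, and H2-DMb1 and H2-DMa by less than either SD. In DM the order was the same except that H2-DMa, at 9.26, stood above H2-DMb1, at 9.14, a difference below their SDs of 0.173 and 0.168. These SDs are the spread of a single gene between libraries. They do not measure the spread of a difference between genes within libraries, which was not tested. H2-Aa stood above H2-Ab1 in every library.

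Of 5 other class II genes of the mouse, 3 passed the filter, and none of the 3 rose (9.2% of all tested genes rose). H2-Oa, the alpha chain of the H2-DO protein, which restrains H2-DM, stood at 7.4, 7.46 and 7.58 in WT, against 7.36, 7.37 and 7.48 in DM (change -0.08, SE 0.0757, limma adjusted p 0.532) with overlapping groups. H2-Ob, the beta chain of H2-DO, stood at 5.58, 5.62 and 5.66 in WT, against 5.38, 5.39 and 5.43 in DM and fell by 0.21 in log2 units (SE 0.059, limma adjusted p 0.04). This call of H2-Ob was lost in 9 of 13 alternative fits, among them each fit that left out 1 library, with adjusted p from 0.0298 to 0.123 over all of them.

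H2-DMb2, the paralog of H2-DMb1, stood at 6.15, 6.26 and 6.19 in WT, against 6.05, 6.26 and 6.17 in DM (change -0.04, SE 0.0746, limma adjusted p 0.736). Of its 50-base stretches, 30.9% also occur in transcripts of 297 other genes, H2-DMb1 among them, and 21.7% of those of H2-Oa occur in BC051537 on the opposite strand, so the values of both are uncertain, while H2-Ob shared none. H2-Eb2 lay between 2.76 and 2.94 in the 6 libraries and was below the filter. The difference of H2-DMb1 over H2-DMb2 within a library was 2.95 ± 0.14 (SD, n = 3) in WT and 3.47 ± 0.177 in DM, and that of H2-Ab1 over its neighbour H2-Ob was 4.65 ± 0.254 in WT and 5.65 ± 0.206 in DM. The groups did not overlap for H2-DMb1 over H2-DMb2 (two-sided exact permutation p 0.1, the lowest value possible, and 0.1 adjusted over 3 pairs). The ranges of both genes already given left almost no room for overlap, so this p adds no support. For H2-Ab1 over H2-Ob the lack of overlap followed from the values of each gene already given, and no test is given. The part of shrinkage in the values of these lowly expressed genes was not tested. In the printed stretches, the promoters of H2-DMb1 and H2-DMb2 both hold an X core 21 bases before the Y box, and that of H2-Ob holds one 18 bases before it, so these letters were present in genes that rose and in genes that did not.

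The same holds for genes outside the class II family. Besides the 5 class II genes, 14 genes had a window with the X core before the Y box, and 6 of them were tested. Of these, Bscl2, a lipid droplet gene, rose by 0.3 (limma adjusted p 0.037) and the histone gene H2ac10 fell by 0.55 (limma adjusted p 0.00385), while the others, such as Got1 at -0.02 (limma adjusted p 0.902), did not pass the threshold.

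Class II genes on chromosome 17 are neighbours of class I loading genes, and the changes were read along that stretch. Between the outermost class II genes (chromosome 17, 34092340 to 34344645) 16 of 22 annotated genes were tested. Of these, 5 rose, all of them among the 7 genes described here, and 1, H2-Ob, fell, against 9.2% and 4.71% of all tested genes. The peptide transporter genes Tap1 (0.07, limma adjusted p 0.565) and Tap2 (0.14, 0.187) and the immunoproteasome genes Psmb9 (-0.02, 0.892) and Psmb8 (0.11, 0.327), which lie between H2-DMb1 and H2-Ob, did not pass the threshold. No gene of the stretch outside the lists used here was called.

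**Figure D3:**
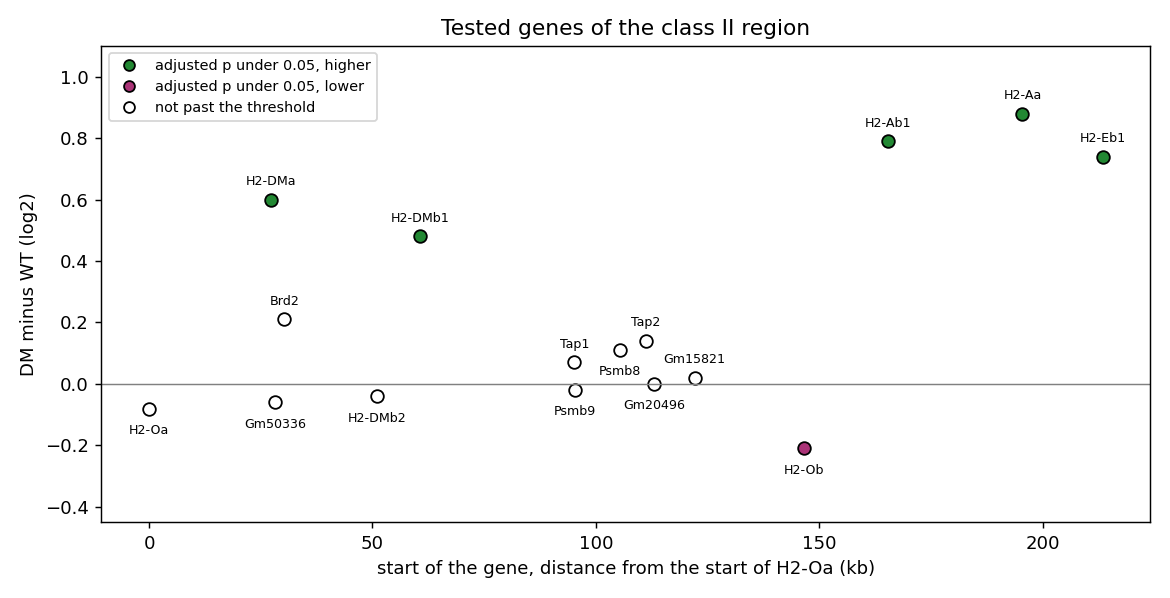
Each point is a tested gene of the class II stretch, at the distance of its start from the start of H2-Oa (kb, horizontal) and at its change (DM minus WT, log2, vertical). H2-DMa and H2-DMb1 at the left and H2-Ab1, H2-Aa and H2-Eb1 at the right were higher, with genes at -0.21 to 0.14 between these sets.

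The factors that bind class II promoters were measured next. None of the 8 genes for RFX, NF-Y, CREB1 and ATF1 passed the threshold of limma, which 13.9% of all tested genes passed. Among the 8, 2 had an unadjusted limma p under 0.05, and the median change was 0.05. The RFX subunits Rfx5, Rfxank and Rfxap had differences of 0.12, 0.11 and -0.03 (limma adjusted p 0.287, 0.317 and 0.825). The NF-Y subunits Nfya, Nfyb and Nfyc had differences of 0.22, -0.16 and 0.12 (limma adjusted p 0.0867, 0.122 and 0.334). Creb1 had a difference of -0.09 and Atf1 of -0.02 (limma adjusted p 0.416 and 0.888). After quantile normalization Nfyb (-0.23, limma adjusted p 0.022) and Creb1 (-0.19, 0.0242) passed the threshold, and Nfyb did so after centring (-0.19, 0.0421). Nfya passed it without WT replicate 2 (0.29, limma adjusted p 0.0246) and with a block for the replicate number (0.22, 0.0381).

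Of 13 genes that act upstream of Ciita, such as the interferon gamma receptor, its kinases and the factors of the Ciita promoters, 3 rose and none fell. In 6 of the 13 alternative fits 1 of these genes was called lower. Of all tested genes, 9.2% rose and 4.71% fell. Irf8, a factor of the macrophage and dendritic lineages, stood at 8.99, 9.4 and 8.92 in WT, against 9.51, 9.76 and 9.71 in DM (change 0.56, SE 0.123, limma adjusted p 0.016). Ifngr2, the second chain of the interferon gamma receptor, rose by 0.37 (limma adjusted p 0.0359), while Ifngr1, the first chain, was at -0.26 (limma adjusted p 0.0553). Prdm1, a repressor of Ciita in plasma cells, rose by 0.26 (limma adjusted p 0.0261). Irf1 (0, limma adjusted p 0.98) and Spi1 (0.15, 0.317) did not pass the threshold. None of these 13 genes was called when DM replicate 2, DM replicate 3 or WT replicate 1 was left out.

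Genes for the endosomal route to class II loading rose with the class II genes. Of 10 such genes, 9 rose and none fell (9.2% of all tested genes rose), with a median of 0.67. The protease genes Ctss, whose product trims the invariant chain, Ctsb and Lgmn rose by 0.96 (SE 0.193, limma adjusted p 0.0115), 0.8 (SE 0.157, 0.0108) and 0.75 (SE 0.124, 0.00626). Marchf1, a ubiquitin ligase that removes class II from the surface, stood at 10.71, 11.08 and 10.74 in WT, against 11.35, 11.72 and 11.56 in DM and rose by 0.7 (SE 0.117, limma adjusted p 0.00638). The 1 gene not called was Ifi30, the thiol reductase of the lysosome (0.23, limma adjusted p 0.114), named after its value was seen. Without DM replicate 2, 5 of the 10 were called. Most of these enzymes also serve lysosomes in general.

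Of 18 genes of class I presentation, 5 rose and none fell (9.2% of all tested genes rose), and the median was 0.13. The called genes with the largest changes were B2m, the shared light chain of class I (0.5, limma adjusted p 0.0282), the heavy chain gene H2-D1 (0.41, 0.0229), Tapbp (0.35, 0.017) and Psme2 (0.33, 0.0101). Nlrc5, the counterpart of Ciita for class I, was at 0.2 (limma adjusted p 0.243), a gene named after its value was seen. The class I count varied when a library was left out, being 0 without DM replicate 2 and 1 without DM replicate 1 or without WT replicate 1. It was 3 without DM replicate 3 or WT replicate 3 and 7 without WT replicate 2. Calls over all genes also moved, from 2611 to 1119 without DM replicate 2. The part of the smaller number of libraries in this was not tested. H2-D1 belongs to a multigene family and is uncertain.

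Among 7 tested genes for co-stimulatory or inhibitory molecules, 2 rose and none fell (9.2% of all tested genes rose). Cd274, which encodes the inhibitory ligand PD-L1, stood at 12.55, 12.82 and 12.37 in WT, against 13.3, 13.31 and 13.32 in DM (change 0.73, SE 0.106, limma adjusted p 0.00385). Cd80 rose by 0.53 (SE 0.108, limma adjusted p 0.0123). The other tested genes of this list had changes between 0.01 and 0.31 and were not called.

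**Figure D4:**
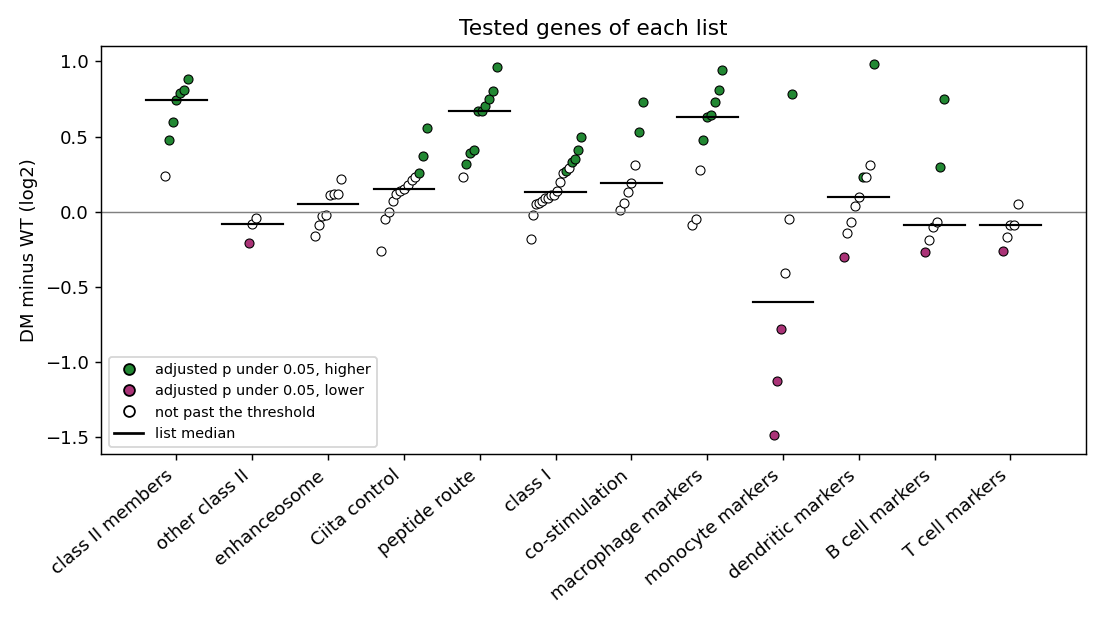
Each point is the change (DM minus WT, log2) of 1 tested gene, grouped by list, with the list median as a line. The class II genes described here, the peptide route and the macrophage markers have medians of 0.74, 0.67 and 0.63, the class I list 0.13 and the monocyte markers -0.6.

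Markers of the cells that carry class II were read in the same libraries, since in bulk RNA fewer cells of a type and less RNA per cell cannot be told apart. Over all tested genes, 9.2% rose and 4.71% fell. Of 9 tested macrophage markers among 10 listed, 6 rose and none fell. Their summed level, as log2 of the summed linear values, was 15.06 to 15.58 in WT and 15.91 to 16.22 in DM. Cd68 (0.94, limma adjusted p 0.00777), Mertk (0.81, 0.0131), Csf1r (0.73, 0.00415) and Mrc1 (0.64, 0.0279) were the largest of these. The complement genes C1qa, C1qb and C1qc, which mark resident macrophages, had means of at most 3.64 in either group; C1qa was below the filter and the others were not called. Of 6 monocyte markers 3 fell, F13a1 (-1.49, limma adjusted p 0.000134), Ly6c2 (-1.13, 0.00361) and Ccr2 (-0.78, 0.00975), and Klf4 rose (0.78, 0.0114), with the summed level at 14.13 to 14.32 in WT and 13.13 to 13.76 in DM. The part of the macrophage and monocyte markers in the class II result was not tested.

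Dendritic cell markers were mixed. Of 9 tested among 12 listed, 2 rose and 1 fell, against 9.2% and 4.71% of all tested genes. The summed level of the list was 13.72 to 14.08 in WT and 14.19 to 14.31 in DM. Wdfy4, which was not called, and Itgax (12.05 in WT and 13.04 in DM) had the highest levels of the list. The median change of the list was 0.1. Itgax, the CD11c integrin that macrophages also carry, rose by 0.98 (SE 0.193, limma adjusted p 0.0108), and Clec9a by 0.23 (limma adjusted p 0.0499). Flt3 fell by 0.3 in log2 units (limma adjusted p 0.0494). Clec9a lost its call in 8 of 13 alternative fits, and Flt3 in 9 of the 12 in which it was tested. The defining factor Zbtb46 was at 4.53 in WT and 4.47 in DM and not called (limma adjusted p 0.468), and Xcr1, Cd209a and Siglech, markers of dendritic subsets, had means of at most 2.2 in either group. Other listed markers were not low: Wdfy4 was at 13.28 in WT and 13.33 in DM, and Clec10a at 8.62 and 8.72, neither called (limma adjusted p 0.718 and 0.607). Batf3 (0.23, limma adjusted p 0.0779), Ccr7 (0.31, 0.0896) and Kmo (-0.14, 0.163) did not pass the threshold. No listed marker was at exactly 0 in any library.

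B cell markers did not move together. Of 6 tested among 8 listed, Cd22 (0.75, SE 0.126, limma adjusted p 0.00659) and Blnk (0.3, 0.0305) rose and Cd79b (-0.27, 0.0166) fell. Of all tested genes, 9.2% rose and 4.71% fell. The summed levels of the list, 8.88 to 9.17 in WT and 9.42 to 9.7 in DM, did not overlap between the groups, but Cd22 had the highest level of the list (8.33 in WT and 9.07 in DM), 4 of the 6 tested genes had a lower mean in DM, and the median change was -0.09. The defining B cell gene Ms4a1 was below the filter, with a mean of 2.16 in both groups. Of 5 tested T cell markers among 8 listed, none rose and Lck fell (-0.26, limma adjusted p 0.0273), and the summed level was 6.71 to 6.88 in WT and 6.63 to 6.68 in DM.

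Most of the 7 genes had a similar order of libraries within the groups. The mean of their centred values was, in replicate order, -0.5, -0.09 and -0.39 for WT, and 0.28, 0.51 and 0.19 for DM. WT replicate 2 was the highest WT library for 6 of the 7 genes, Ciita being the exception, and DM replicate 2 was the highest DM library for all 7. The share of all tested genes with this order was not computed, so the order cannot be called particular to the 7 genes. The same 2 libraries were the highest of their groups for 7 of 9 tested macrophage markers each. Macrophage markers had centred means of -0.28, -0.06 and -0.32 in WT, against 0.12, 0.32 and 0.21 in DM, and the peptide route had -0.35, -0.07 and -0.47 in WT and 0.22, 0.44 and 0.22 in DM.

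**Figure D5:**
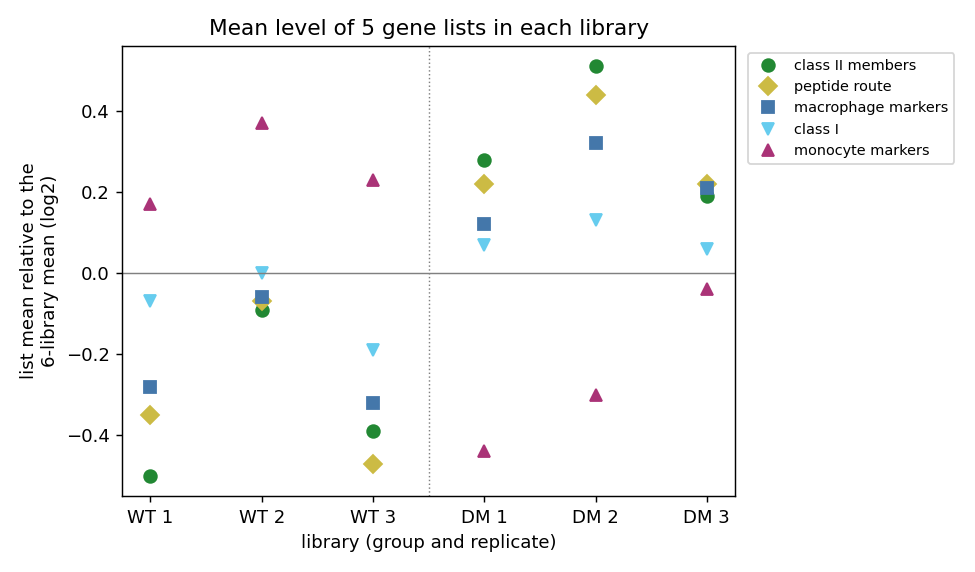
Points show the mean of 5 gene lists in each library relative to the mean over the 6 libraries (log2), with WT left and DM right of the dotted line. Class II genes, peptide route, macrophage markers and class I genes are all highest in replicate 2 of each group. The monocyte markers lie between 0.17 and 0.37 in WT, highest in replicate 2, and between -0.44 and -0.04 in DM, highest in replicate 3.

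The genes outside the lists whose profile over the 6 libraries was most like the mean profile of the 7 genes were Ostm1, Cdc42ep2, Slc39a2, Degs1, Mob3b, Mreg, Lmbrd1 and Dram1. Their Pearson correlations with that profile over the 6 libraries, which share the group difference, ranged from 0.996 to 1. Ostm1 encodes a partner of a lysosomal chloride transporter, and its values stood at 11.26, 11.49 and 11.31 in WT, against 11.69, 11.81 and 11.63 in DM. Slc39a2, a zinc transporter gene, had the largest change of the 8, at 10.35, 10.91 and 10.43 in WT, against 11.36, 11.8 and 11.32 in DM (0.93, SE 0.159, limma adjusted p 0.007). Lmbrd1 and Dram1 encode lysosomal membrane proteins and rose by 0.42 and 0.47 (limma adjusted p 0.0129 and 0.0138). Of the 7 genes themselves, H2-Ab1 was closest to the mean profile (1, after rounding), and Ciita the least close (0.836).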

How the data were processed

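The authors deposited 1 table of 6 libraries with 142699 lines of rlog values on the log2 scale, from -1.97 to 21.88; the unit follows from its title ("rld") and its range. The submitters' processing notes name cutadapt 2.6, STAR 2.7.3, DESeq2 1.30.0 and mm10. The counting tool, strand setting and annotation are not given in the sources used here. Identical lines were merged to 55487 genes, of which 98.1% matched GENCODE M21 by versioned identifier. No pair of libraries was identical. Depth is unknown, so no counting interval was computed.

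DM was compared with WT by limma 3.58.1 (R 4.3.3, eBayes with trend) over 18766 genes with a mean of at least 3, with Benjamini-Hochberg adjustment. Differences between gene pairs were tested by exact permutation over libraries (scipy 1.17.1). Figures used matplotlib 3.10.9. Members and lists were chosen with earlier results of these data known. Named genes were all members, other class II and promoter factor genes, up to 4 called genes per other list with the largest changes, and 8 genes with the most similar profile (SD of at least 0.2, numbered gene models left out). Other genes named were chosen after their values were seen. On simulated data with 200 of 18766 genes changed, the fit called 173 of them, including all 50 changed by 1 on the log2 scale, and 10 unchanged genes. The simulated noise was drawn independently for each gene, while genes in these libraries varied together. The simulation therefore cannot give the error rate for such genes. The 13 alternatives were no filter, a mean of at least 5, no trend, quantile normalization, a replicate block, centring of each library on its median, a fit to protein-coding genes alone, and leaving out each library. The labels put all libraries in batch 1.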

Additional observations from a re-analysis of the deposited data

How the results depend on the processing

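All 7 class II presentation genes had a positive change in each of the 13 alternatives, and 5 of the 6 called genes kept the call in each of them, the exception being H2-DMb1. The count of these genes called ran from 5 to 6 when 1 library was left out and was 6 otherwise. Over all tested genes, 1119 to 3475 were called with 1 library left out, the lowest being 1119 with DM replicate 2 omitted, 1185 with WT replicate 1 omitted and 1537 with DM replicate 3 omitted.

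Same-numbered libraries of the groups had deviations correlated at 0.491, 0.116 and 0.041, and different-numbered libraries at -0.336 to 0.124. The labels do not say whether the numbers mark pairs, and these correlations cannot decide it. The main fit used no pairs. With a replicate block, 3742 genes were called in all, 6 of the 7 class II genes, 1 promoter factor gene (0 without the block), 6 genes upstream of Ciita (5 higher and 1 lower, against 3 and 0) and 0 other class II genes (1).

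Other counts moved as follows. Other class II genes called (1) were 0 without the filter, after quantile normalization and whenever a library was left out. Promoter factor genes (0) were 1 after centring, 2 after quantile normalization and 0 to 1 with a library left out. With a library left out, counts were 0 to 5 for genes upstream of Ciita, 5 to 9 for the peptide route, 0 to 7 for class I, 1 to 3 for dendritic, 1 to 4 for B cell and 0 to 1 for T cell markers. Dendritic markers (3) were 1 after centring and without the filter. T cell markers (1) were 0 after quantile normalization; with a mean of at least 5 none was tested, giving 0. Class II region counts were 4 to 5 with a library left out, against 6. The causes were not tested.

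Changes near 0 turned sign for H2-DMb2 (0.01 after quantile normalization; -0.09 to 0.01 with a library left out, positive without DM replicate 1), Rfxap (-0.07 to 0, positive before rounding without DM replicate 1 or WT replicate 2) and Atf1 (-0.03 to 0.01, positive without DM replicate 2 or WT replicate 2). Of the 51 named genes called, 26 kept the call throughout and 25 lost it in at least 1 alternative. Shrinkage of low values and unknown depth limit what can be read for H2-Ob, H2-Eb2, H2-Ea and Ciita.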
